A study of Caenorhabditis elegans with 15 samples.

Results

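Worms exposed to silica (SiO2) nanoparticles were compared with worms kept without nanoparticles (Control), gene by gene and by gene function. The comparison took the 5 SiO2 samples and the 5 Control samples of a series of 15 RNA samples, whose remaining samples were exposed to silver (Ag). All genes with a total of at least 10 reads over the 10 samples were tested, which left 19094 of the 46778 genes in the deposited table. Every sample was RNA of whole C. elegans of the wild-type strain N2, collected at adult day 1. Each well had held 350 to 400 larvae of the L1 stage, fed with E. coli OP50 and grown at 21 °C for 72 h. SiO2 wells held 10 µg/ml of the particles and Control wells held 0 µg/ml. The labels place the incubation at adult day 1, whereas the methods of the study describe growth from L1 in the presence of the particles, so the stage at exposure is not settled. No source used here ties the samples of a group to separate worm cultures beyond separate wells, so the P values measure the spread between these samples, which may be technical.

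The cuticle of C. elegans is a collagen-rich coat that the epidermis renews at every larval molt, and different collagen genes serve different molts. The intestine meets both food and particles, and it releases lysozymes, C-type lectins and other secreted proteins that respond to bacteria. A separate programme, the intracellular pathogen response, is known for its induction by microsporidia and the Orsay virus, and pals-5 is its usual reporter gene. Hermaphrodites make sperm late in larval life and then switch to oocytes, so an adult day 1 worm holds stored sperm, oocytes and embryos together. In RNA of whole worms, fewer cells of a type and less RNA per cell cannot be told apart.

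Reads counted in genes ranged from 17693844 to 23678845 per Control sample (median 19556340) and from 18352383 to 24296570 per SiO2 sample (median 19969382). At this depth 1 CPM (1 count per 1000000 reads, after scaling of the libraries) stands for roughly 20 reads, and genes with few reads have coarse values. Genes with at least 1 read numbered 19211 to 19730 in Control and 19145 to 19994 in SiO2. Markers of the main tissues were present in all 10 samples and none of the 15 passed the test. Among them were elt-2 and ges-1 of the intestine, unc-54 and myo-3 of body wall muscle, myo-2 and tnt-4 of the pharynx, rab-3 and unc-119 of neurons, pgl-1 and glh-1 of the germline and rme-2 and puf-5 of oocytes. For the adult epidermal collagen col-19 the levels were 501 to 777 CPM in Control and 510.4 to 746 CPM in SiO2. The yolk protein gene vit-2 lay at 29969 to 36764 CPM in Control and 27838 to 37474 CPM in SiO2, and both ranges overlap. SiO2 replicate 14 and Control replicate 5 had the highest summed oocyte levels of their groups, 12303 and 10957 CPM over 42 genes.

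The question of the comparison was which genes respond to SiO2 and what they do. In the quasi-likelihood F test of edgeR, 578 genes, or 3.03% of those tested, had a Benjamini-Hochberg adjusted P under 0.05 and were called. Higher in SiO2 were 391 genes (2.05%) and lower were 187 (0.979%). The median log2 fold change (SiO2 over Control) was 1.19 among the higher calls, -0.92 among the lower calls and -0.01 over all tested genes. Higher calls lay mostly at low levels: 250 of the 391 averaged under 5 CPM, against 65 of the 187 lower calls and 8058 of the 19094 tested genes. The ranges of both groups did not overlap for 853 genes (4.47%), of which 385 were called. Protein coding genes made up 565 of the calls, with 12 pseudogenes and 1 lincRNA. Chromosome IV had the largest share of its tested genes called higher, 3.26%, and chromosome X the smallest, 0.647%. The fit of all 15 samples called only 227 genes, and there higher calls were 46.3% of the calls instead of 67.7%. Leaving out a sample gave 282 calls without Control replicate 3, 284 without SiO2 replicate 12 or SiO2 replicate 13, 291 without Control replicate 5, 307 without Control replicate 1 and 849 without SiO2 replicate 15.

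**Figure D1:**
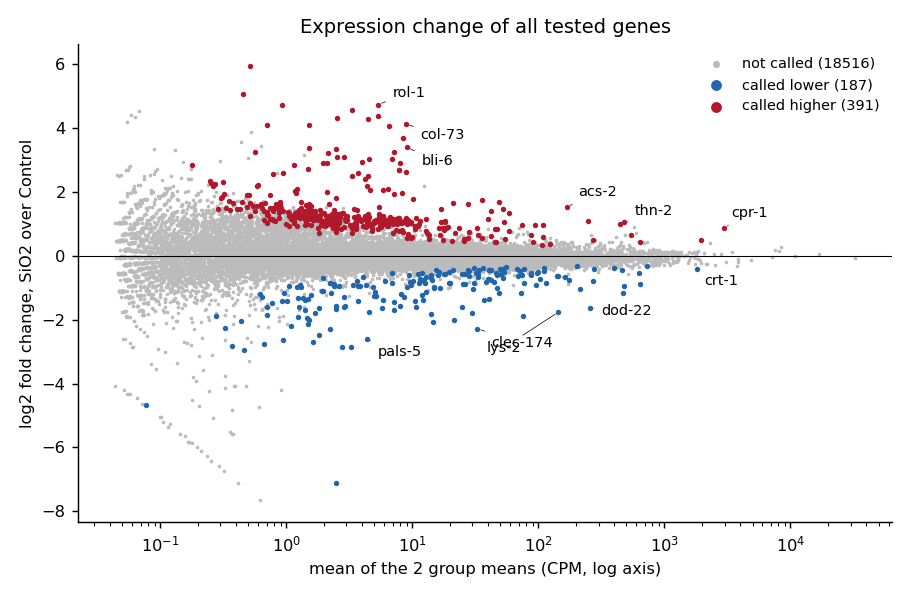
Each point is a tested gene, by its mean level (CPM, log axis) and its log2 fold change of SiO2 over Control. Red points are the 391 genes called higher and blue points the 187 called lower at an edgeR adjusted P under 0.05. Higher calls gather at low levels, while lower calls such as dod-22 and lys-2 lie among the strongly expressed genes.

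Genes were then read by function through 49 lists collected by gene symbol, and 196 of the calls fell in them. Lists with many higher calls were the cuticle collagens (47 of 169 tested) and the structural proteins of sperm (35 of 56). The lower calls gathered in the pals genes (19 of 36), the CUB-like genes (5 of 17) and the F-box genes (12 of 293). C-type lectins held calls in both directions, 9 higher and 14 lower of 186. These counts stand beside 2.05% higher and 0.979% lower over all tested genes. Opposite calls were 0 in the collagen, sperm, pals, CUB-like and F-box lists, also with DESeq2, and the likelihood ratio test of edgeR gave 1, a lower collagen. At an unadjusted P under 0.05 there were 1, 0, 1, 0 and 5. Of all 19094 tested genes 3160 had an unadjusted P under 0.05, in either direction. Later counts at that threshold stand beside this number. Values below are mean ± SD over 5 samples, or the 5 samples in the order of their replicate numbers (Control 1 to 5, SiO2 11 to 15).

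**Figure D2:**
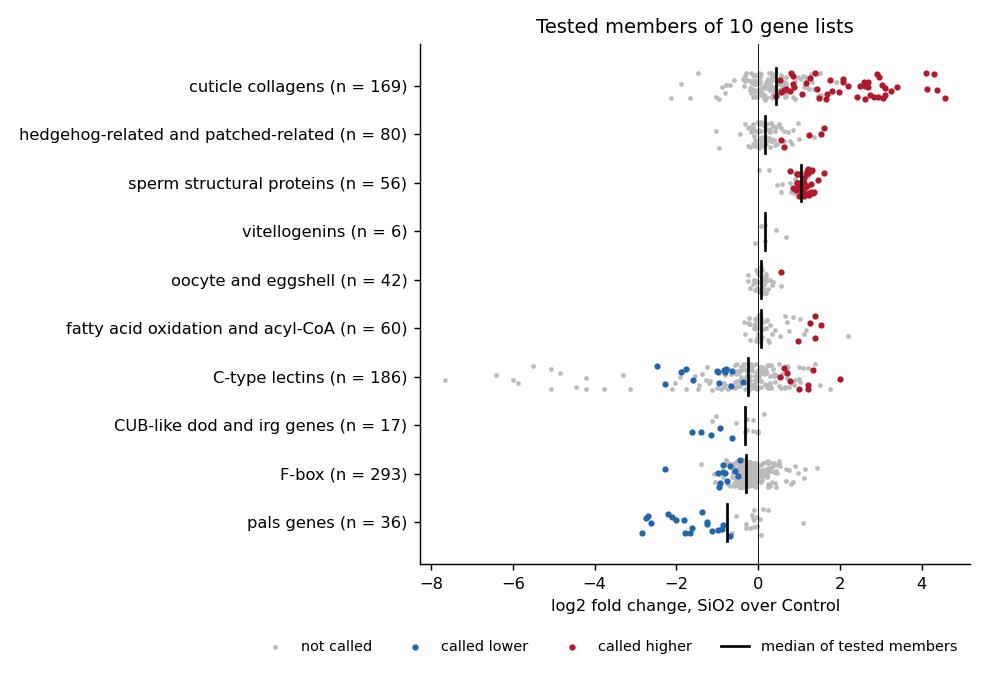
Each point is a tested member of a gene list, by its log2 fold change of SiO2 over Control. Colored points passed the test and black lines are the medians, which ran from -0.76 for the pals genes to 1.05 for the sperm structural proteins.

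Cuticle collagen genes were higher in SiO2: 47 of 169 tested members rose, none fell, and 131 had a positive log2 fold change. Their median log2 fold change was 0.44, against -0.01 over all tested genes. All lists here were chosen with earlier results of these data known, so the counts are descriptions. The collagens that rose included structural genes known from body shape mutants. They were dpy-13, dpy-5 and dpy-4 (short and fat when mutated), rol-6 and rol-8 (helically twisted), sqt-1 and sqt-2 (squat or twisted), and bli-1, bli-2 and bli-6 (blistered). Not every gene of this kind rose. The collagen gene dpy-7, also 1 of the 15 tissue markers, was at 112.5 ± 17.1 CPM in Control and 106.6 ± 11.8 CPM in SiO2 (log2 fold change -0.08, edgeR adjusted P = 0.837).

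The collagen gene col-73 (WBGene00000649, chromosome II, 4872098 to 4873129 of WBcel235) was at 1.3, 0.816, 0.554, 1.63 and 0.414 CPM in the Control samples and at 33.7, 17.4, 10.1, 12.2 and 10.9 CPM in the SiO2 samples. Every SiO2 sample lay above every Control sample, and SiO2 replicate 11 was the highest (log2 fold change 4.12, SE 0.40, edgeR adjusted P = 4.57e-05). The gene bli-6 (WBGene00000256, chromosome IV, 6377065 to 6378168), needed for an unblistered cuticle, was at 1.35, 2.07, 1.85, 1.8 and 0.651 CPM in the Control samples and at 24.8, 19.3, 14, 14.2 and 10.3 CPM in the SiO2 samples. Here too the groups did not overlap (log2 fold change 3.40, SE 0.28, edgeR adjusted P = 1.32e-05). For dpy-13 (WBGene00001074, chromosome IV, 4235614 to 4236710), whose collagen shapes the body, the values were 1.35, 2.07, 1.71, 3.61 and 0.533 CPM in the Control samples and 26.2, 17.4, 8.63, 9.01 and 9.33 CPM in the SiO2 samples. The lowest SiO2 sample stood above the highest Control sample (log2 fold change 2.90, SE 0.40, edgeR adjusted P = 8.36e-04). The twisted-body gene rol-1 (WBGene00004394, chromosome II, 12172573 to 12176069), which was not on the collagen list, was at 0.55, 0.272, 0.138, 0.704 and 0.178 CPM in the Control samples and at 20.7, 8.45, 5.24, 7.72 and 9.44 CPM in the SiO2 samples. It had the largest log2 fold change among the called genes that averaged at least 5 CPM (log2 fold change 4.74, SE 0.44, edgeR adjusted P = 4.04e-05).

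Further collagens with like changes were col-63 (log2 fold change 4.37, edgeR adjusted P = 4.43e-04), col-38 (log2 fold change 3.25, edgeR adjusted P = 5.90e-05), col-138 (log2 fold change 3.04, edgeR adjusted P = 1.01e-04), col-71 (log2 fold change 2.69, edgeR adjusted P = 1.15e-04), dpy-5 (log2 fold change 2.69, edgeR adjusted P = 5.85e-04) and dpy-4 (log2 fold change 2.62, edgeR adjusted P = 0.00193). Their levels were 1.36 ± 0.286 CPM in Control and 13 ± 7.29 CPM in SiO2 for col-38 and 2.07 ± 1.02 CPM in Control and 13.6 ± 6.68 CPM in SiO2 for dpy-5. For rol-8 the levels were 2.22 ± 1.5 CPM in Control and 9.46 ± 4.22 CPM in SiO2 (log2 fold change 2.07, SE 0.44, edgeR adjusted P = 0.0188), and the call was lost without SiO2 replicate 12 (adjusted P = 0.0524). On the opposite strand, col-138 overlaps C52D10.3 and dpy-4 overlaps atln-2. The use of strand in counting is not given in the sources used here, so reads of such partners cannot be told apart.

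The collagen calls were unevenly spread over levels of expression. Among the 72 tested collagens that averaged 1 to 10 CPM, 30 rose and the median log2 fold change was 0.91. Between 10 and 100 CPM 15 of 39 rose, with a median of 0.38. None of the 22 collagens at 100 CPM or more was called by the quasi-likelihood test or DESeq2, and their median was -0.02. The likelihood ratio test called 1 of them lower, and at an unadjusted P under 0.05 3 were higher and 1 lower. Under 1 CPM 2 of 36 rose. The summed level of all 169 collagens overlapped between the groups, at 12026 to 16251 CPM (median 15591) in Control and 13490 to 16653 CPM (median 15417) in SiO2. The count of collagens called stayed between 33 (all 15 samples in one fit) and 58 (likelihood ratio test) over all alternatives, and 31 were called under every one.

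**Figure D3:**
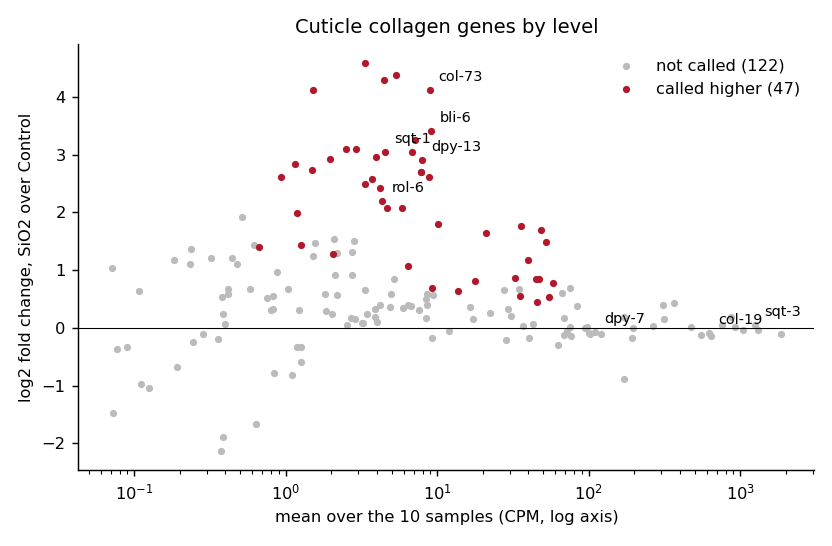
Each point is a cuticle collagen gene, by its mean level over the 10 samples (CPM, log axis, not corrected for gene length) and its log2 fold change of SiO2 over Control. The 47 red points passed the test, and all of them average under 100 CPM. The 22 collagens at 100 CPM or more, col-19 among them, run from -0.89 to 0.43 with a median of -0.02.

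Genes that accompany cuticle renewal were read beside the collagens. Hedgehog-related and patched-related genes, which nematodes use in the epidermis and in molting, had 5 of 80 members higher and none lower. The secreted hedgehog-related gene grd-14 was at 2.8, 2.77, 2.54, 3.34 and 2.55 CPM in the Control samples and at 7.44, 9.69, 5.88, 9.12 and 8.57 CPM in the SiO2 samples. The groups did not overlap (log2 fold change 1.54, SE 0.16, edgeR adjusted P = 9.77e-05). Also higher were grd-6 (log2 fold change 1.24, edgeR adjusted P = 4.43e-04) and wrt-8 (log2 fold change 1.61, edgeR adjusted P = 0.0157). The call of grd-5 (log2 fold change 0.64, edgeR adjusted P = 0.0234) was lost without Control replicate 1 or 5 or SiO2 replicate 11, 12 or 13, at adjusted P values of 0.0509 to 0.0657. Without Control replicate 5, SiO2 replicate 11 or SiO2 replicate 13 only 3 members of this list were called.

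The abu genes, which encode proteins of the pharyngeal cuticle, had 3 of 11 members higher, beside 2.05% over all tested genes. Their median log2 fold change was 0.95, and 10 of the 11 were positive. DESeq2 and the likelihood ratio test each called 7 higher and 0 lower, and 9 were higher at an unadjusted P under 0.05. Their summed level overlapped, at 190 to 321.3 CPM in Control and 263.3 to 464.3 CPM in SiO2. For abu-11 the levels were 7.49 ± 1.73 CPM in Control and 13.6 ± 3.48 CPM in SiO2, with a log2 fold change of 0.85 and an edgeR adjusted P of 0.0249. That call was lost without Control replicate 1 or 5 or SiO2 replicate 11, with adjusted P values of 0.0545 to 0.0676. The other genes called by the quasi-likelihood test, abu-1 and abu-6, had 0 to 2 and 0 to 1 reads per Control sample. In SiO2 their reads were 7, 17, 2, 10 and 54 for abu-1 and 5, 10, 0, 15 and 70 for abu-6, with SiO2 replicate 15 the highest for both. The call of abu-1 was lost without Control replicate 1 or 3 (adjusted P = 0.0543 and 0.0526), and that of abu-6 without any of the Control samples (0.0548 to 0.1). Reads that align to several places were not counted, so closely similar copies are uncertain.

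Enzymes and regulators of molting held 1 call in the quasi-likelihood test, beside 3.03% called over all tested genes. Of 62 cuticle assembly and molting genes 1 was called, cutl-23 (log2 fold change 0.59, edgeR adjusted P = 0.0464), and it lost its call without any of the samples except SiO2 replicate 14. In the quasi-likelihood test none of the 34 astacin metalloproteases and none of the 13 regulators of larval timing was called, with median log2 fold changes of 0.23 and -0.06. At an unadjusted P under 0.05 there were 13 higher and 2 lower astacins and 2 lower timing regulators, beside 3160 of all 19094 tested genes. DESeq2 called 3 astacins higher, 1 lower and no timing regulator, and the likelihood ratio test 5 astacins higher, 2 lower and no timing regulator.

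Genes of sperm were higher in SiO2, and this result was sensitive to the samples used. Of the 56 tested structural proteins of sperm 35 rose and none fell, with a median log2 fold change of 1.05, and 56 of 56 log2 fold changes were positive. Major sperm proteins, which build the motile cytoskeleton of the amoeboid sperm and also signal to oocytes, made up 20 of the 35 calls. These were 20 of 28 tested msp genes, and the log2 fold changes of all 28 lay between 0.46 and 1.60. The nspd peptides, enriched in sperm, had 5 of 9 members higher. The gene msp-49 (WBGene00003442, chromosome II, 5194366 to 5194749) was at 1.45, 2.17, 1.61, 2.68 and 1.24 CPM in the Control samples and at 4.84, 5.89, 6.08, 5.03 and 3.5 CPM in the SiO2 samples. Every SiO2 sample was above every Control sample (log2 fold change 1.46, SE 0.22, edgeR adjusted P = 0.00171), and this was the only gene of the list called under every alternative. For msp-33, which overlaps gst-9 on the opposite strand, the levels were 4.05 ± 1.22 CPM in Control and 9.25 ± 2.27 CPM in SiO2 (log2 fold change 1.19, SE 0.22, edgeR adjusted P = 0.00713). Near-identical msp copies share reads that were not counted, so single members are uncertain.

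Summed over the 56 genes, sperm structural expression was 122 to 220.1 CPM (median 144) in Control and 203 to 441 CPM (median 319) in SiO2. Control replicate 2, at 220.1 CPM, exceeded SiO2 replicate 15, at 202.8 CPM, so the groups overlapped. The number of called members was 8 without SiO2 replicate 12, 13 without Control replicate 3, 14 without Control replicate 1 or SiO2 replicate 13, 16 without Control replicate 5 and 19 without SiO2 replicate 14. Kallisto estimates left 23 calls, scaling by library size only left 22, and the fit of all 15 samples left 1.

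Enzymes and membrane proteins of sperm formation had 4 of 31 members higher and a median of 0.85, and 30 of the 31 log2 fold changes were positive. At an unadjusted P under 0.05, 18 were higher and 0 lower. Their summed level was 131.6 to 154.3 CPM (median 141.4) in Control and 162.5 to 207.8 CPM (median 188.9) in SiO2, with no overlap. The called members were gsp-4 and gsp-3, phosphatases of sperm, spe-4, a presenilin of sperm organelles, and spe-26. For gsp-4 the levels were 3.25 ± 1.07 CPM in Control and 6.62 ± 1.43 CPM in SiO2 (log2 fold change 1.03, SE 0.22, edgeR adjusted P = 0.019). The number of called members fell to 0 without Control replicate 3 or 5 or SiO2 replicate 12 or 13, to 1 without Control replicate 1 and to 2 without Control replicate 4 or SiO2 replicate 11, and it was 10 without SiO2 replicate 15. It was 11 in the likelihood ratio test, 9 in DESeq2, 2 with filterByExpr genes, library size only or Kallisto estimates, and 0 in the fit of all 15 samples.

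Other reproductive genes were read beside those of sperm. Oocyte and eggshell genes had 1 of 42 called, the eggshell chondroitin proteoglycan cpg-22 (log2 fold change 0.56, edgeR adjusted P = 0.0457), whose call was lost without any sample except SiO2 replicate 13. None of the 6 vitellogenins, 24 germ granule and meiotic genes, 44 early embryonic genes or 4 male neuron genes was called by the quasi-likelihood test or DESeq2, with medians of 0.17, 0.25, -0.30 and -0.23. The likelihood ratio test called 1 early embryonic gene lower. At an unadjusted P under 0.05, 2 germ granule and meiotic genes were higher and 10 early embryonic genes lower. Summed oocyte expression was 6446 to 10957 CPM (median 8087) in Control and 5720 to 12303 CPM (median 8101) in SiO2. Summed vitellogenin expression was 51716 to 62698 CPM (median 58104) in Control and 47772 to 68238 CPM (median 54416) in SiO2. Early embryonic genes summed to 486 to 555 CPM (median 516) in Control and 433 to 506 CPM (median 474) in SiO2. The part of these other germline levels in the sperm result was not tested.

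**Figure D4:**
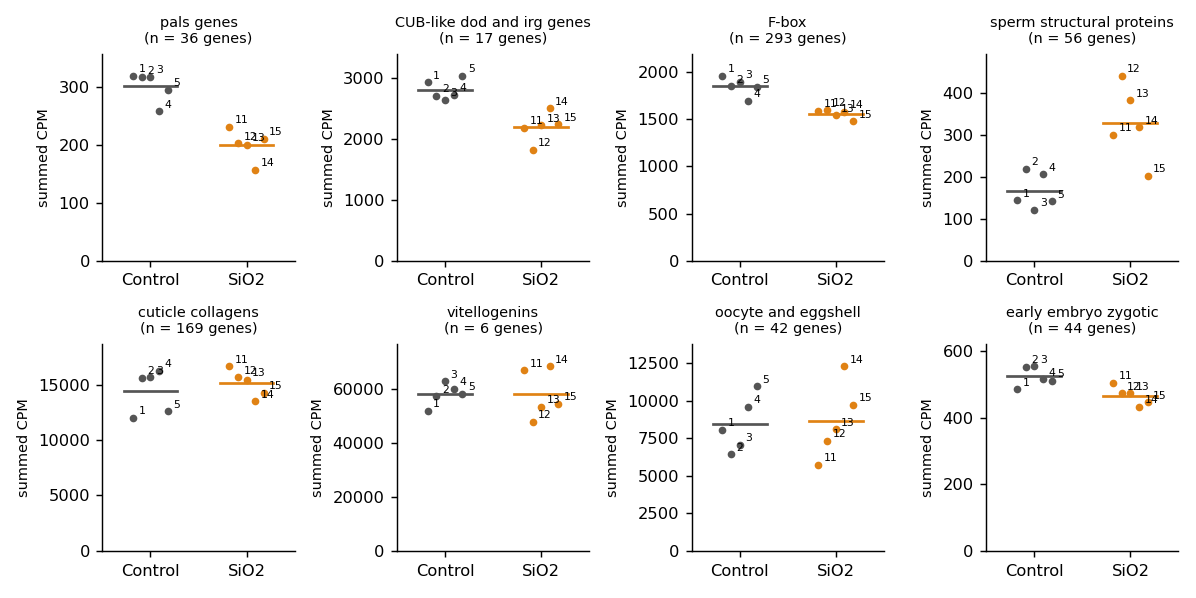
Each point is the summed level (CPM) of all tested members of a gene list in one sample, numbered by replicate, and lines are group means. Control and SiO2 do not overlap for the pals, CUB-like and F-box genes, and they overlap for the sperm structural, collagen, vitellogenin, oocyte and embryo lists.

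The pals genes were lower in SiO2: 19 of 36 tested members fell and none rose, with a median log2 fold change of -0.76. Their summed level was 259 to 319.7 CPM (median 318) in Control and 158 to 232 CPM (median 203) in SiO2, with no overlap. The count was 17 to 19 under all alternatives, and 16 members were called under every one. The gene family is defined by a protein signature of unknown biochemistry, and several members belong to the intracellular pathogen response.

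The reporter gene pals-5 (WBGene00007659, chromosome I, 13130813 to 13132466) was at 7.41, 8.81, 6.64, 6.78 and 7.64 CPM in the Control samples and at 1.56, 1.4, 0.784, 0.936 and 1.32 CPM in the SiO2 samples. The highest SiO2 sample, 1.56 CPM, lay far below the lowest Control sample, 6.64 CPM (log2 fold change -2.62, SE 0.19, edgeR adjusted P = 9.50e-06). Its neighbor pals-14 (WBGene00009061, chromosome I, 13139122 to 13141898) was at 24.4, 19.2, 20.7, 19.1 and 25.9 CPM in the Control samples and at 7.65, 6.24, 6.03, 3.1 and 7.96 CPM in the SiO2 samples. The groups were again separate (log2 fold change -1.81, SE 0.20, edgeR adjusted P = 1.01e-04). For pals-11 the levels were 4.85 ± 1.47 CPM in Control and 0.672 ± 0.156 CPM in SiO2 (log2 fold change -2.84, SE 0.26, edgeR adjusted P = 4.04e-05), and for pals-29 they were 2.85 ± 0.639 CPM in Control and 0.435 ± 0.134 CPM in SiO2 (log2 fold change -2.70, SE 0.25, edgeR adjusted P = 4.04e-05). Of these lower genes 10 sit close together on chromosome I of WBcel235. They form runs of 6 (pals-2 to pals-11, 13104251 to 13126650) and 4 (pals-5 to pals-14, 13130813 to 13141898) adjacent tested protein coding genes. Another run, on chromosome V, held pals-37, pals-39 and pals-38 (12437440 to 12446995), with log2 fold changes of -0.85 to -1.25.

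Further genes linked to the same response were read beside the pals genes. The gene eol-1 (WBGene00045401, chromosome V, 13979462 to 13980907), an RNA decapping factor homolog of the response, was at 11.7, 9.57, 11.7, 10.1 and 11.2 CPM in the Control samples and at 4.27, 3.45, 4.31, 2.1 and 2.59 CPM in the SiO2 samples. All SiO2 samples were below all Control samples (log2 fold change -1.69, SE 0.18, edgeR adjusted P = 1.01e-04). The remaining genes of this response were chosen after their values were seen. F26F2.1 was at 4.28 ± 1.46 CPM in Control and 1.42 ± 1.05 CPM in SiO2 (log2 fold change -1.60, SE 0.36, edgeR adjusted P = 0.0255), and its call was lost without Control replicate 1, 3 or 5 or SiO2 replicate 12, 13 or 14 (adjusted P of 0.0507 to 0.0831). Its neighbors F26F2.3 and F26F2.4 had log2 fold changes of -1.68 (edgeR adjusted P = 0.0541) and -2.15 (edgeR adjusted P = 0.0833), short of the threshold. Without Control replicate 4 both passed it (adjusted P = 0.0384 and 0.0424), and without SiO2 replicate 11 F26F2.3 did (adjusted P = 0.00424).

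Several genes of the response did not pass the test. The antagonistic regulators pals-22 and pals-25 were at 9.99 to 11.2 CPM in Control and 8.07 to 11.1 CPM in SiO2 for the former and at 7.7 to 9.55 CPM in Control and 6.49 to 9.1 CPM in SiO2 for the latter, with log2 fold changes of -0.13 and -0.11. The viral RNA sensor drh-1 had a log2 fold change of 0.01 (edgeR adjusted P = 0.99). For cul-6, the cullin of the ubiquitin ligase that the response uses, it was -0.13 (edgeR adjusted P = 0.75). Its partners skr-3, skr-4 and skr-5 had log2 fold changes of -0.23, -0.19 and -0.24, with edgeR adjusted P values of 0.233 to 0.454. None of the 19 Skp1-related genes was called by the quasi-likelihood test, the likelihood ratio test or DESeq2, while 11 were lower at an unadjusted P under 0.05. Their median was -0.24 and their summed level was 981 to 1043 CPM (median 1021) in Control and 911 to 957 CPM (median 919) in SiO2, with no overlap.

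F-box genes, which encode substrate adaptors of ubiquitin ligases and form a large family in nematodes, had 12 of 293 members lower and none higher. Their median log2 fold change was -0.29, and 58 of the 293 log2 fold changes were positive. Of the 12 members 10 belonged to the fbxa group, of which 152 were tested. The gene fbxa-75 was at 3.8, 4.46, 3.46, 2.51 and 4.38 CPM in the Control samples and at 1.04, 0.775, 0.588, 0.409 and 0.964 CPM in the SiO2 samples. The groups did not overlap (log2 fold change -2.28, SE 0.25, edgeR adjusted P = 1.01e-04). For fbxa-182 the levels were 34.1 ± 2.48 CPM in Control and 18.6 ± 2.97 CPM in SiO2 (log2 fold change -0.87, SE 0.12, edgeR adjusted P = 8.36e-04), for fbxa-74 25.1 ± 2.94 CPM in Control and 13.8 ± 1.09 CPM in SiO2 (log2 fold change -0.86, SE 0.11, edgeR adjusted P = 5.92e-04) and for fbxa-14 6.52 ± 0.313 CPM in Control and 3.29 ± 0.628 CPM in SiO2 (log2 fold change -0.99, SE 0.15, edgeR adjusted P = 0.00164). These 4 were called under every alternative, whereas the count of 12 was 4 without SiO2 replicate 12 or 13, 5 without Control replicate 3, 6 without SiO2 replicate 14, 7 without Control replicate 1 or 5, 7 with library size only, 6 in the fit of all 15 samples and 24 in the likelihood ratio test. Among genes with MATH and BTB domains, adaptors of another ligase class, 2 of 85 were lower, math-37 (log2 fold change -0.92, edgeR adjusted P = 0.00631) and math-15 (log2 fold change -0.96, edgeR adjusted P = 0.0273). The call of math-15 was lost without Control replicate 1, 2 or 3 or SiO2 replicate 12, 13 or 14 (adjusted P of 0.0523 to 0.0784).

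On chromosome V, ddn-1 (WBGene00015227, chromosome V, 8758820 to 8760516) was at 34.4, 32.5, 32.9, 29.6 and 42 CPM in the Control samples and at 11.2, 9.07, 9.16, 4.8 and 8.07 CPM in the SiO2 samples. The next gene, B0507.8 (WBGene00015225, chromosome V, 8760622 to 8762961), was at 27.1, 19.6, 22.5, 21.3 and 28.2 CPM in the Control samples and at 8.22, 5.31, 5.24, 3.63 and 5.58 CPM in the SiO2 samples. In both genes all SiO2 samples lay below all Control samples, with log2 fold changes of -2.01 (edgeR adjusted P = 2.87e-05) and -2.08 (edgeR adjusted P = 2.87e-05). They belong to a run of 4 lower neighbors, B0507.7 to B0507.9 (8757312 to 8766038).

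**Figure D5:**
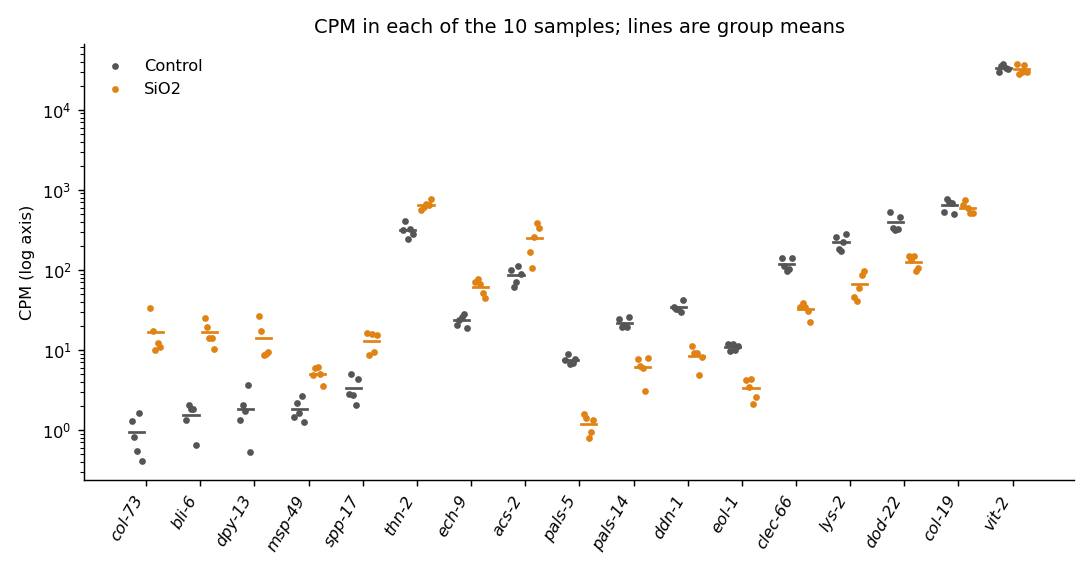
Each point is one sample's level (CPM, log axis) of a named gene, with Control in grey and SiO2 in orange, and lines are the group means. The groups are apart for each gene from col-73 to dod-22 except acs-2, and they overlap for the adult markers col-19 and vit-2.

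Secreted genes of the intestinal response to bacteria moved in both directions. The CUB-like genes, several of them named for regulation downstream of daf-16 or by infection, had 5 of 17 lower and none higher, with a median of -0.33 and a summed level of 2643 to 3038 CPM (median 2731) in Control and 1829 to 2509 CPM (median 2226) in SiO2. The gene dod-22 (WBGene00010125, chromosome IV, 12965374 to 12967392) was at 522, 331, 311, 326 and 463 CPM in the Control samples and at 149, 132, 148, 97.3 and 104 CPM in the SiO2 samples. All SiO2 samples were below all Control samples (log2 fold change -1.63, SE 0.17, edgeR adjusted P = 7.01e-05). Also lower were irg-8 (log2 fold change -1.39, edgeR adjusted P = 0.00179), dod-19 (log2 fold change -1.16, edgeR adjusted P = 0.00283), dod-24 (log2 fold change -0.93, edgeR adjusted P = 0.00111) and dod-23, with log2 fold change -0.64. Upstream of dod-22 on chromosome IV, F55G11.6, F55G11.7 and F55G11.8 were lower as well, in a run of 4 genes (12958030 to 12967392) with log2 fold changes of -1.63 to -2.95. F55G11.8 was at 46.5 ± 16.3 CPM in Control and 13.3 ± 1.22 CPM in SiO2. A further run on the same chromosome held C17H12.8, C17H12.6 and H20E11.3. C17H12.8, singled out after its values were seen, was at 641 ± 137 CPM in Control and 289 ± 109 CPM in SiO2 (log2 fold change -1.15, SE 0.20, edgeR adjusted P = 0.00631).

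Lysozymes, which break down bacterial cell walls, changed in both directions. The gene lys-2 (WBGene00003091, chromosome V, 10280307 to 10281474) was at 256, 185, 172, 221 and 279 CPM in the Control samples and at 45.6, 41.1, 60.1, 85.5 and 96.1 CPM in the SiO2 samples. No SiO2 sample reached the Control range (log2 fold change -1.76, SE 0.22, edgeR adjusted P = 3.70e-04). Its neighbor lys-1 (WBGene00003090, chromosome V, 10277904 to 10279056) was at 687, 586, 521, 637 and 717 CPM in the Control samples and at 282, 255, 327, 389.5 and 377 CPM in the SiO2 samples. This decrease was smaller, with separate groups (log2 fold change -0.95, SE 0.13, edgeR adjusted P = 5.99e-04). The invertebrate-type lysozyme ilys-3 was instead at 9.36, 15.9, 6.6, 6.51 and 6.22 CPM in the Control samples and at 16.9, 29.8, 23.5, 26.9 and 25.6 CPM in the SiO2 samples. All SiO2 samples were above all Control samples (log2 fold change 1.47, SE 0.24, edgeR adjusted P = 0.00312). The related ilys-5 was at 421 ± 56 CPM in Control and 665 ± 133 CPM in SiO2 (log2 fold change 0.66, SE 0.13, edgeR adjusted P = 0.0131), and lys-4 was higher at a log2 fold change of 1.00. In all, 3 of 14 lysozymes rose and 2 fell.

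C-type lectins, sugar-binding proteins that often respond to bacteria, had 9 members higher and 14 lower of 186, with a median of -0.24. Their summed level was 9385 to 10782 CPM (median 10044) in Control and 8586 to 9158 CPM (median 9048) in SiO2, with no overlap. The gene clec-66 (WBGene00009397, chromosome II, 12904398 to 12906644) was at 139.9, 113, 95.9, 103 and 142 CPM in the Control samples and at 34.9, 38.2, 34.5, 31 and 22.6 CPM in the SiO2 samples. The groups were separate (log2 fold change -1.88, SE 0.15, edgeR adjusted P = 1.32e-05). For clec-174 the values were 62.4, 42, 42.9, 54.8 and 69.7 CPM in the Control samples and 12.1, 10.7, 13.9, 17.4 and 1.73 CPM in the SiO2 samples. SiO2 replicate 15 was the lowest of all (log2 fold change -2.29, SE 0.36, edgeR adjusted P = 0.00275). Lower too were clec-265 (log2 fold change -1.60, edgeR adjusted P = 1.01e-04), clec-4 (log2 fold change -1.76, edgeR adjusted P = 3.03e-04) and clec-86 (log2 fold change -1.01, edgeR adjusted P = 5.72e-05), the last of which overlaps alh-10 on the opposite strand. Higher members included clec-230 (0.844 ± 0.0994 CPM in Control and 3.4 ± 1.82 CPM in SiO2, log2 fold change 2.00) and clec-70 (33.3 ± 7.09 CPM in Control and 84.1 ± 24.8 CPM in SiO2, log2 fold change 1.34). Of the lectins 12, 3 higher and 9 lower, were called under every alternative. The likelihood ratio test called 30 lower, DESeq2 called 14 higher, and the fit of all 15 samples 4 higher.

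Other antimicrobial families had fewer calls, mostly higher. Saposin-like genes encode pore-forming peptides of the gut, and 2 of 26 rose. The gene spp-17 was at 2.8, 5.06, 2.72, 2.02 and 4.32 CPM in the Control samples and at 16.1, 8.72, 16, 9.36 and 15.4 CPM in the SiO2 samples, and the neighboring spp-23 was at 13.3 ± 2.59 CPM in Control and 41.5 ± 14.9 CPM in SiO2. Both had separate groups, with log2 fold changes of 1.96 (edgeR adjusted P = 4.73e-04) and 1.63 (edgeR adjusted P = 5.11e-04). Thaumatin-like genes, relatives of plant defense proteins, had 2 of 3 higher. The gene thn-2 (WBGene00009215, chromosome IV, 12383170 to 12383974) was at 311, 408, 244, 323 and 281 CPM in the Control samples and at 555, 614, 656, 653 and 759 CPM in the SiO2 samples. The adjacent thn-1 (WBGene00009213, chromosome IV, 12380084 to 12380900) was at 34.8 ± 8.11 CPM in Control and 72.2 ± 11.8 CPM in SiO2. The log2 fold changes were 1.05 (edgeR adjusted P = 2.86e-04) and 1.05 (edgeR adjusted P = 0.00157), and both were called under every alternative. The epidermal peptide gene nlp-33 was at 20.9 ± 1.43 CPM in Control and 30.1 ± 4.28 CPM in SiO2 (log2 fold change 0.53, SE 0.12, edgeR adjusted P = 0.0238), a call lost without Control replicate 1, 3, 4 or 5 or SiO2 replicate 11, 12 or 13 (adjusted P of 0.0512 to 0.0739). It was 1 of 19 in its list. None of the 25 fip and fipr genes was called by the quasi-likelihood test, against 2 higher by DESeq2 or the likelihood ratio test and 4 higher and 3 lower at an unadjusted P under 0.05. The galectin lec-11 (log2 fold change -0.48, edgeR adjusted P = 0.021) and the chitinase-like chil-22 (log2 fold change -0.53, edgeR adjusted P = 0.0488) were the only called members of their families of 12 and 26. The former call was lost without Control replicate 1, 3 or 5 or SiO2 replicate 12 or 13, and the latter without any sample except SiO2 replicate 15. Of the 26 chitinase-like genes 25 had a negative log2 fold change, with a median of -0.37. Their summed level was 140.4 to 172 CPM (median 154.6) in Control and 104 to 133.1 CPM (median 128.8) in SiO2, with no overlap.

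Genes of fatty acid oxidation had 5 of 60 members higher and none lower, with a median of 0.06. The acyl-CoA synthetase gene acs-2 (WBGene00009221, chromosome V, 15567394 to 15569897), known for its induction on fasting, was at 100.2, 61.2, 71.5, 110.2 and 89.5 CPM in the Control samples and at 166, 106, 258, 390.1 and 332 CPM in the SiO2 samples. SiO2 replicate 12, at 105.9 CPM, lay within the Control range and the other SiO2 samples lay above it (log2 fold change 1.53, SE 0.28, edgeR adjusted P = 0.00817). The enoyl-CoA hydratase family gene ech-9 (WBGene00001158, chromosome IV, 10233310 to 10235329) was at 20.7, 23.4, 25.6, 28.1 and 18.6 CPM in the Control samples and at 69.7, 76.2, 66.6, 51.1 and 44.1 CPM in the SiO2 samples. The groups were separate (log2 fold change 1.40, SE 0.16, edgeR adjusted P = 1.35e-04). The peroxisomal oxidase gene acox-1.5 was at 73.2 ± 15.2 CPM in Control and 143 ± 24.9 CPM in SiO2 (log2 fold change 0.97, SE 0.14, edgeR adjusted P = 0.00155). The remaining members were acs-15 (0.388 ± 0.154 CPM in Control and 1.01 ± 0.273 CPM in SiO2, log2 fold change 1.38, edgeR adjusted P = 0.0245) and acdh-8 (1.75 ± 0.775 CPM in Control and 4.17 ± 1.6 CPM in SiO2, log2 fold change 1.26, edgeR adjusted P = 0.0467). Of the 5 genes, acs-2 and ech-9 were called under every alternative, and acs-15 lost its call without Control replicate 1, 3, 4 or 5 or SiO2 replicate 12, 13 or 14. The count was 3 without Control replicate 1, 3 or 5 or SiO2 replicate 12, 13 or 14, and 9 without SiO2 replicate 15. It was 9 in the likelihood ratio test, 8 in DESeq2 and 2 in the fit of all 15 samples.

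Other metabolic genes changed singly. The lysosomal lipase gene lipl-1 was at 226 ± 22.1 CPM in Control and 319 ± 26.1 CPM in SiO2 (log2 fold change 0.50, SE 0.09, edgeR adjusted P = 0.00956). The fasting-induced lipase gene fil-1 was at 277, 310, 239, 456 and 151 CPM in the Control samples and at 120.5, 171, 162, 98 and 146 CPM in the SiO2 samples. Its groups overlapped, since Control replicate 5 lay within the SiO2 range (log2 fold change -1.04, SE 0.23, edgeR adjusted P = 0.0235), and the call was lost without Control replicate 1 or SiO2 replicate 11 or 14 (adjusted P of 0.0501 to 0.0596). The peroxisomal transporter gene pmp-1 rose (67.2 ± 10.7 CPM in Control and 106 ± 4.66 CPM in SiO2, log2 fold change 0.66, SE 0.11, edgeR adjusted P = 0.00312). The glucocerebrosidase homolog gba-4, chosen after its values were seen, was at 50.1 ± 13 CPM in Control and 98.4 ± 17.7 CPM in SiO2 (log2 fold change 0.97, SE 0.17, edgeR adjusted P = 0.00528).

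Digestive proteases of the gut had 2 of 26 higher and 2 lower. The cathepsin B-like gene cpr-1 (WBGene00000781, chromosome V, 11975551 to 11976756) was at 1814, 2631, 2003, 2141 and 1920 CPM in the Control samples and at 3722, 3586, 3936, 4218 and 3861 CPM in the SiO2 samples. All SiO2 samples were above all Control samples (log2 fold change 0.88, SE 0.10, edgeR adjusted P = 1.15e-04). A second cathepsin B-like gene, cpr-4, was at 1601 ± 182 CPM in Control and 2272 ± 204 CPM in SiO2 (log2 fold change 0.50, SE 0.09, edgeR adjusted P = 0.00891). Lower were cpr-3 (64.3 ± 7.65 CPM in Control and 40 ± 7.89 CPM in SiO2, log2 fold change -0.69) and the aspartyl protease gene asp-16 (8.63 ± 1.46 CPM in Control and 2.78 ± 0.623 CPM in SiO2, log2 fold change -1.63).

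Detoxification families held at most 1 call in each direction, beside 2.05% higher and 0.979% lower over all tested genes. Of 66 UDP-glucuronosyltransferases, which attach sugars to small molecules, ugt-18 rose (62.9 ± 8.57 CPM in Control and 124 ± 12.1 CPM in SiO2, log2 fold change 0.97, SE 0.11, edgeR adjusted P = 1.35e-04) and ugt-43 fell (3.12 ± 0.227 CPM in Control and 1.62 ± 0.418 CPM in SiO2, log2 fold change -0.94, SE 0.19, edgeR adjusted P = 0.0131). Both were called under every alternative. Of the other detoxification families, 1 of 71 cytochromes P450, cyp-13A5, and 1 of 45 glutathione transferases, gst-6, were lower, with log2 fold changes of -0.54 (edgeR adjusted P = 0.0249) and -0.56 (edgeR adjusted P = 0.0327). The call of cyp-13A5 was lost without Control replicate 3, 4 or 5 or SiO2 replicate 12 or 13, and that of gst-6 without any sample except Control replicate 3. The heme exporter gene mrp-5, 1 of 47 ABC transporters, had a log2 fold change of -0.30 (edgeR adjusted P = 0.0488), and this call was lost without any sample except SiO2 replicate 14.

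Several groups often read in nanoparticle studies had no called member in the quasi-likelihood test. They were the antioxidant enzymes (28 tested, median log2 fold change 0.06), metal handling genes (16, 0.05), heat shock proteins and chaperones (57, 0.03), fatty acid desaturases and elongases (18, 0.13), one-carbon and transsulfuration genes (19, 0.06), contractile proteins of muscle (30, -0.04) and histones (40, 0.13). DESeq2 called 1 metal handling gene higher, and 1 heat shock or chaperone gene and 1 one-carbon gene lower. The likelihood ratio test called 2 metal handling genes and 1 desaturase or elongase gene higher, and 1 gene each of the chaperones, one-carbon genes and histones lower. At an unadjusted P under 0.05 these lists held, in the same order, 1, 5, 2, 6, 4, 1 and 5 genes. Of all 19094 tested genes 3160 had such a P. The summed level of the 40 histones was lower in SiO2, although 23 of their log2 fold changes were positive and 17 negative. It was 1486.3 to 1733 CPM (median 1628.9) in Control and 1307.5 to 1469.3 CPM (median 1410.6) in SiO2, with no overlap. Neuropeptide genes also had none of 88 called, against 1 higher and 2 lower in DESeq2, 2 higher and 3 lower in the likelihood ratio test and 2 higher and 25 lower at an unadjusted P under 0.05. Their median was -0.27, with 82 of 88 log2 fold changes negative, and their summed level was 2128 to 2676 CPM (median 2330) in Control and 1604 to 2364 CPM (median 2016) in SiO2. Calreticulin, crt-1, an ER chaperone outside these lists that was singled out after its values were seen, was at 2057 ± 246 CPM in Control and 1557 ± 74 CPM in SiO2 (log2 fold change -0.40, SE 0.09, edgeR adjusted P = 0.0235). It overlaps smut-1 on the opposite strand, and the call was lost without Control replicate 3 or 5 or SiO2 replicate 12 or 13 (adjusted P of 0.0527 to 0.0695).

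Signalling genes had few calls in the quasi-likelihood test, beside 0.979% lower over all tested genes. Of the regulators, 1 of 245 nuclear hormone receptors, nhr-112, was lower (log2 fold change -0.85, edgeR adjusted P = 0.0372), as was 1 of 32 insulin-like peptides, ins-27 (log2 fold change -0.66, edgeR adjusted P = 0.0277). The call of nhr-112 was lost without any sample except SiO2 replicate 13 or 15, and that of ins-27 without any except Control replicate 4 or SiO2 replicate 12 or 15. Of 619 chemoreceptor genes, srj-29 fell (2.68 ± 0.625 CPM in Control and 1.24 ± 0.276 CPM in SiO2, log2 fold change -1.10, SE 0.22, edgeR adjusted P = 0.0146). The call of str-121 rests on 2, 6, 2, 3 and 2 reads in Control and 0 in every SiO2 sample, and it was lost without Control replicate 1, 3, 4 or 5 or SiO2 replicate 11, 12, 13 or 14 (adjusted P of 0.0553 to 0.0797). Medians of the receptor, insulin-like and chemoreceptor lists were -0.11, -0.29 and -0.15. In the same order, the likelihood ratio test called 7, 3 and 11 lower and 1, 0 and 0 higher. DESeq2 called 3, 2 and 5 lower and 2, 0 and 0 higher. At an unadjusted P under 0.05, 20, 9 and 30 were lower and 6, 1 and 6 higher.

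In no list were 382 of the called genes, 262 higher and 120 lower. Most of them, 207 and 81, carried a sequence name in place of a gene symbol. Apart from rol-1, Y47D7A.15 had the largest increase among those of at least 5 CPM, at 0.601, 0.652, 1.11, 0.924 and 0.237 CPM in the Control samples and at 8.63, 11.6, 7.2, 17.3 and 16.8 CPM in the SiO2 samples. Every SiO2 sample was above every Control sample (log2 fold change 4.07, SE 0.33, edgeR adjusted P = 1.32e-05). E01G4.6 (1.18 ± 0.43 CPM in Control and 15.6 ± 11.4 CPM in SiO2) and B0238.12 (2.39 ± 1.14 CPM in Control and 10.4 ± 5.82 CPM in SiO2) were also higher, by log2 fold changes of 3.71 and 2.09. Lower, with their log2 fold changes, were F42C5.3 (-1.61), Y94H6A.2 (-1.57), F46B3.1 (-1.45) and the claudin-like gene clc-19 (-1.40), which overlaps clc-20 on the opposite strand. F49C12.7, singled out after its values were seen, was at 167, 166, 144, 155 and 163 CPM in the Control samples and at 308, 320, 384, 404 and 274 CPM in the SiO2 samples. All SiO2 samples were above all Control samples (log2 fold change 1.09, SE 0.11, edgeR adjusted P = 6.72e-05), and it overlaps F49C12.6 on its own strand. The gene lact-1, with a beta-lactamase domain and also chosen afterwards, was at 7.24 ± 1.02 CPM in Control and 14 ± 1.11 CPM in SiO2 (log2 fold change 0.95, SE 0.13, edgeR adjusted P = 5.99e-04).

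Some called genes were neighbors on the chromosomes, several of them members of the same family, and clustering as such was not tested. In 11 runs, 3 or more adjacent tested genes were called in the same direction, counting protein coding genes only. Of these, 7 runs were lower and 4 higher, with 40 genes in all. The 4 higher runs included 3 with msp genes: msp-49 to msp-50 on chromosome II (5194366 to 5200180), msp-81 to msp-56 on chromosome IV (9836034 to 9841923) and F32B6.4 to msp-77 on chromosome IV (9890585 to 9895014).

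For the called members of 6 lists, the Ag samples of the series give a further level on a scaling over all 15 samples. These members were picked by their SiO2 calls, so the separation of SiO2 from Control is no further result. The comparisons share the Control samples and the difference between the exposures was not tested. The 19 called pals genes summed to 127.2 to 156.1 CPM in Control, 42.6 to 75.3 CPM in SiO2 and 115.8 to 188.1 CPM in Ag. The 5 CUB-like genes summed to 615 to 907.5 CPM in Control, 264.9 to 335.8 CPM in SiO2 and 731.7 to 1082 CPM in Ag. The 47 collagens summed to 329.6 to 489.1 CPM, 823.5 to 1195 CPM and 397.1 to 688.2 CPM, and the 35 sperm genes to 88.1 to 163.6 CPM, 155.1 to 341.3 CPM and 136.4 to 599.6 CPM, in the same order. The 12 F-box genes summed to 145.1 to 162.7 CPM in Control, 87.2 to 102.5 CPM in SiO2 and 140.2 to 160 CPM in Ag. The 5 genes of fatty acid oxidation lay at 151.6 to 218.7 CPM in Control, 313.7 to 622.7 CPM in SiO2 and 322.9 to 971.7 CPM in Ag, where the exposures overlapped each other and not Control.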

How the data were processed

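Libraries were single-end reads of 100 bases. According to the submitters' processing notes and the methods of the study, the authors trimmed reads with Trim Galore 0.4.5, aligned them to WBcel235 with HISAT2 2.1.0, and used HTSeq 0.9.1 in its intersection-strict mode to assign reads to the genes of Ensembl release 91. The deposited counts are raw reads per gene, without scaling or correction for gene length, and reads aligned to several places or shared by genes were lost. The strand setting is not given in the sources used here. A second table that the authors deposited holds estimated counts from Kallisto and tximport, which were rounded and used only as an alternative. The methods mention 6 repeats per condition, and 5 samples per group were analysed here. The third group of the series, 5 Ag samples, entered 1 alternative fit and 1 description.

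Differential expression was tested with edgeR 4.0.16 in R 4.3.3: a minimum total of 10 counts over the 10 samples, TMM normalization (factors 0.929 to 1.062), the quasi-likelihood F test and Benjamini-Hochberg adjustment over 19094 genes at 0.05. CPM are TMM-scaled counts per 1000000 reads, and log2 fold changes come from the edgeR fit with its default prior count. Alternatives were the likelihood ratio test, DESeq2 1.42.0, filterByExpr genes, every gene with at least 1 count, RLE factors, library size only, Kallisto estimates, all 15 samples in one fit, and each of the 10 samples left out. The fit was tested on simulated data. Symbols, positions and overlaps came from Ensembl release 115, where 19017 of the 19094 genes were found. Genes named were the 15 higher and 15 lower calls with the largest log2 fold change at a mean of at least 5 CPM, up to 4 calls with the smallest P per list, 15 tissue markers, and genes said to be chosen later. The comparison, lists and named genes were chosen with earlier results of these data known. Promoter and protein sequences were not analysed here.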

Additional observations from a re-analysis of the deposited data

Results flagged for a closer look

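A sample was singled out for a gene when its gap to the nearest other sample of its group exceeded Dixon's 95% limit for 5 samples, as a share of the group's range, which chance passes in about 1 of 20 groups. This happened 19 times among 274 groups of 5 samples (127 named genes and 10 list sums).

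Among genes called higher, SiO2 replicate 11 stood high for the cuticle genes rol-1 (20.7 CPM, others 5.24 to 9.44) and col-63 (24.1 CPM, others 4.33 to 9.49). SiO2 replicate 15 stood high for B0238.12 (20.7 CPM, others 7.08 to 8.71), abu-1 (2.74 CPM, others at most 0.659) and abu-6 (3.55 CPM, others at most 0.877). For abu-1 Control replicate 2 (0.109 CPM) and for abu-6 Control replicate 1 (0.0501 CPM) were the only Control samples with any read. SiO2 replicate 14 was high for acox-1.5 (186.1 CPM, others 123.4 to 138.8), Control replicate 5 was low for cpg-22 (5.68 CPM, others 8.01 to 8.86), and Control replicate 2 was high for acs-15 (0.652 CPM, others 0.264 to 0.369).

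Among genes that were lower or near the threshold, SiO2 replicate 11 stood nearest to Control for F26F2.1 (3.28 CPM, others 0.76 to 1.17) and F26F2.3 (1.51 CPM, others 0.233 to 0.457). SiO2 replicate 15 did so for C17H12.8 (480.2 CPM, others 208.1 to 263.3) and SiO2 replicate 12 for ins-27 (4.03 CPM, others 2.81 to 2.98). Control replicate 2 was high for str-121 (0.326 CPM, others 0.0923 to 0.132).

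Among the tissue markers, which were not called, Control replicate 4 was high for both pharyngeal genes, myo-2 (410.2 CPM, others 156 to 192.6) and tnt-4 (114.9 CPM, others 58.7 to 69.4). The intestinal markers elt-2 (Control replicate 2, 54.3 CPM, others 48.9 to 50.02) and ges-1 (SiO2 replicate 15, 76.3 CPM, others 49.5 to 57.1) each had 1 high sample. The results without each of these samples are given with the processing alternatives.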

How the results depend on the processing

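No paired analysis was possible because replicates are numbered from 1 to 15 without repeats, so Control and SiO2 have no number in common. The total of 578 calls (391 higher, 187 lower) moved beyond 1.5 times under 3 alternatives that kept all 10 samples. The likelihood ratio test called 1178 genes (760 higher, 418 lower), DESeq2 1012 (693 and 319), and all 15 samples in one fit 227 (105 and 122). The others gave 453 (library size only) to 649 (every gene with at least 1 count). Leaving out each sample in turn gave 282 to 849 calls, 158 to 642 of them higher and 106 to 207 lower. Of the 578 genes 222 were called in all 10 of these fits and 162 (77 higher, 85 lower) under every alternative. Besides the changes given beside the results, the named genes kept their direction with 1 exception: ins-27 had a log2 fold change of 1.11 (adjusted P = 0.733) with the Kallisto estimates. The fit of all 15 samples ended 32 of 103 named calls, among them all named sperm genes except msp-49, and also cpr-3, cpr-4, lipl-1, acox-1.5 and gba-4. Scaling moved the median log2 fold change of all genes by less than 0.1. A gene under 1 CPM has fewer than about 20 reads per sample, so calls there rest on few reads. The cause of the differences between alternatives was not tested.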

Other observations

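F59B2.12 had the largest fitted decrease of the called genes, and its call rests on few samples. It had 1, 1, 2, 328 and 165 reads in the Control samples and 0, 0, 1, 1 and 1 reads in the SiO2 samples. Control replicates 4 and 5 thus held nearly all of its reads, and the call was lost without Control replicate 4 (adjusted P = 0.08), Control replicate 5 (adjusted P = 0.071) or any of the SiO2 samples (0.0553 to 0.106). Of 35 nematode-specific peptide genes outside the sperm list 3 were higher and none lower, while the median log2 fold change of the list was -0.09 and 19 of the 35 were negative. Its summed level was 416.4 to 817.8 CPM (median 599.1) in Control and 355.0 to 648.9 CPM (median 442) in SiO2. At an unadjusted P under 0.05, 6 members were higher and 2 lower, and DESeq2 called 3 higher and none lower. The levels were 0.915 ± 0.183 CPM in Control and 2 ± 0.523 CPM in SiO2 for nspb-12 (log2 fold change 1.14, edgeR adjusted P = 0.0158) and 0.98 ± 0.16 CPM in Control and 2.34 ± 0.854 CPM in SiO2 for nspa-5 (log2 fold change 1.26, edgeR adjusted P = 0.0196). The former call was lost without Control replicate 3 and the latter without Control replicate 1 or 3 or SiO2 replicate 12 or 13 (adjusted P of 0.0521 to 0.0641). Cytochrome c gene cyc-2.2 was the only called member among 43 respiratory chain genes, at 1.84 ± 0.433 CPM in Control and 4.05 ± 1.41 CPM in SiO2 (log2 fold change 1.15, SE 0.25, edgeR adjusted P = 0.0235). It overlaps cubn-1 on the opposite strand, and its call was lost without Control replicate 1, 3 or 5 or SiO2 replicate 12 or 13 (adjusted P of 0.0589 to 0.0772).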
